A study of Drosophila melanogaster with 36 samples.

Results

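Transcript levels in the ventral lateral neurons (LNv) of flies kept on rich food at 18 °C (HC18) were compared with those of flies kept on poorer food at 25 °C (LC25). All 12 HC18 libraries and all 12 LC25 libraries entered, 24 of the 36 libraries of the series, and each HC18 library was paired with the LC25 library of the same zeitgeber time (ZT, hours on the daily light schedule; every 2 h, the first at ZT02 and the last at ZT24). HC18 flies were raised on food with 1.5x sucrose and yeast (SY) at 18 °C, and LC25 flies on 0.5x SY at 25 °C; food and temperature therefore change together in this comparison and their parts cannot be told apart. The other 12 libraries of the series (HC25, 1.5x SY at 25 °C) share the food of HC18 and the temperature of LC25, and are given beside it where they help. The codes do not state their food and temperature in the labels; both were read from the code and the design text. All flies were females of a w1118 background labelled WT that carried a membrane GFP expressed under Pdf control, and brain neurons were sorted by fluorescence. The labels give no age, no number of brains per library and no statement that libraries came from separate groups of flies. The spread to which each p-value refers may therefore be technical. In the paired tests it is the spread of the time-matched differences, and in the test of daily rhythm the spread of libraries about fitted cosines.

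LNv neurons are the clock neurons of the fly brain that make the neuropeptide PDF and set the timing of daily activity for the rest of the clock network. Within them, CLK and CYC activate per and tim, whose proteins return to the nucleus and repress that activation, while vri and Pdp1 form a second loop that represses and activates Clk. The photoreceptor CRY resets the loop by light, and PDF acts back on these cells and on other clock neurons through its receptor, encoded by Pdfr. The neurons are strongly secretory, so that genes of peptide processing, protein folding and translation belong to their ordinary work. The series was set up to identify the mRNAs that cycle in LNv neurons when food and temperature differ.

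Markers of the labelled cell type were present in every library. Values are TPM (transcript levels scaled to one fixed total per library), which keep no sequencing depth, so the depth behind each value is unknown. Pdf took 22.2 to 29.6% of TPM in HC18 libraries (median 27.3%) and 20.3 to 30.1% in LC25 libraries (median 21.99%), and Fer2, a transcription factor gene of LNv neurons, was present in every library of both groups. Some defining markers of other cells were low and others were not. The gene repo (glia) reached at most 1.35 TPM in HC18 and 1.70 TPM in LC25, Mhc (muscle) 1.43 and 0.864 TPM, and VGlut (glutamatergic neurons) 0.691 and 1.02 TPM. Transcripts of other neuron types were present in both groups: Tbh and Tdc2, of octopamine and tyramine synthesis, were at 298 to 878 and 21.0 to 288 TPM in HC18 and 224 to 1018 and 47.2 to 297 TPM in LC25. ChAT, of acetylcholine synthesis, was at 39.5 to 87.8 TPM in HC18 and 21.0 to 56.8 TPM in LC25, Vmat reached 54.9 and 30.1 TPM, Gad1 reached 19.8 and 31.6 TPM, and summed Kenyon cell markers were at 949 to 1687 TPM in HC18 and 907 to 2013 TPM in LC25. The LC25 library of ZT18 stood apart in photoreceptor markers: its summed photoreceptor markers reached 1047 TPM, 695 TPM of it from the rhodopsin gene ninaE, against 24.2 to 72.1 TPM in HC18 libraries and a median of 57.1 TPM in LC25. Each library had a median Spearman correlation with the other 23 across genes of at least 0.890, the lowest in HC18 at ZT24. In 4 HC18 libraries (ZT06, ZT08, ZT10 and ZT22) the abundant transcript fmt was at 121 to 1603 TPM, against 18790 to 84165 TPM in the other 8 HC18 libraries and 8730 to 104615 TPM in LC25. Results were therefore also computed over the 8 pairs without these time points.

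Of the abundant transcript classes, mitochondrially encoded transcripts took a lower share of HC18 libraries and cytosolic ribosomal protein transcripts a higher one. Mitochondrially encoded transcripts took 3.08 to 13.3% of TPM in HC18 libraries (median 8.58%), against 8.53 to 19.1% in LC25 libraries (median 14.2%). The means were 8.30% ± 3.03 in HC18 and 13.9% ± 3.06 in LC25 (SD, n = 12 each), lower in HC18 in 9 of 12 pairs (exact paired permutation test, 2-sided, p = 0.00488, 0.0260 adjusted over 16 transcript classes). The groups overlap, and the 4 HC18 libraries low in fmt are at 3.08 to 7.05%, against 6.86 to 13.3% in the other 8 HC18 libraries. Over the 8 other pairs the share was 9.91% ± 2.07 in HC18 and 13.9% ± 3.57 in LC25, with p = 0.0781. Ribosomal protein transcripts took 13.4 to 20.6% in HC18 libraries (median 15.2%) and 9.40 to 14.9% in LC25 libraries (median 12.1%), with means of 15.99% ± 2.20 and 12.4% ± 1.74 (SD, n = 12 each). They were higher in HC18 in 11 of 12 pairs (exact p = 0.000977, adjusted 0.0156). Over the 8 other pairs the HC18 mean was 14.8% and the LC25 mean 12.4% (exact p = 0.0156). Pdf averaged 26.5% ± 2.23 in HC18 and 23.2% ± 2.82 in LC25 and was higher in HC18 in 11 of 12 pairs, but the class test did not pass after adjustment (exact p = 0.0225, adjusted 0.0719), nor did the gene's own test (limma adjusted p = 0.621). Because TPM are shares, a class that takes less of a library raises the values of all others. In sorted pools of cells, fewer cells of a type and less RNA per cell cannot be told apart.

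**Figure D1:**
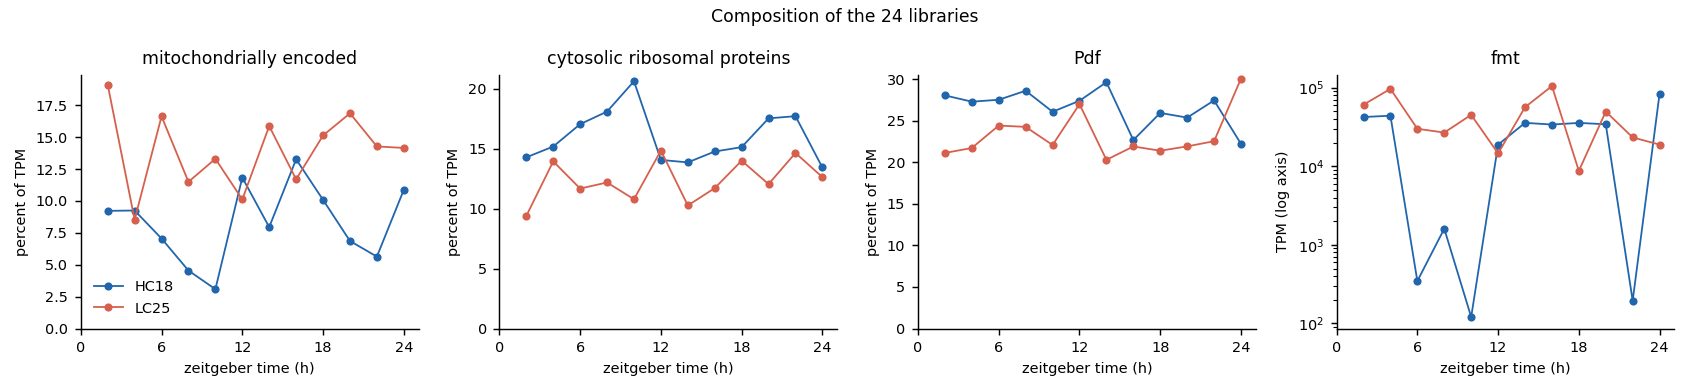
Percent of TPM taken by mitochondrially encoded transcripts, cytosolic ribosomal protein transcripts and Pdf, and TPM of fmt on a log axis, by zeitgeber time, with 1 point per library for HC18 (blue) and LC25 (red). HC18 lies under LC25 in mitochondrial share in 9 of 12 pairs and above it in ribosomal share in 11 of 12, and the 4 low fmt values are HC18 at ZT06, ZT08, ZT10 and ZT22.

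Levels were next compared gene by gene in limma on log2(TPM + 1) with the time points as pairs; fold changes are those of TPM + 1, which makes low genes look less changed than they are. Of 8491 genes whose mean reached 1 TPM, 829 (9.76%) had an adjusted p below 0.05, 614 higher in HC18 (7.23%) and 215 lower (2.53%). Most differences were moderate: the median log2 difference was 0.55 among the higher genes and -0.58 among the lower ones, and 49 higher and 31 lower genes reached 2-fold. In all 12 pairs the direction was the same for 102 of the higher and 36 of the lower genes. The 24 libraries separated without any overlap between groups for 14 genes (0.165% of those tested), 12 higher and 2 lower in HC18. The median log2 difference of all genes was 0.09. After rescaling by the median ratio the split was 410 higher and 386 lower, and after leaving out mitochondrially encoded genes, Pdf, fmt and trol before scaling it was 279 and 458, with the median of all genes at -0.03. Over the 8 pairs without the low fmt libraries 106 genes passed, 60 higher and 46 lower. The 613 of the 614 higher genes still tested and the 215 lower genes all kept their direction, with medians of 0.44 and -0.47. These 8 pairs are among the 12 by which the genes were called, so a kept direction is nearly given in advance.

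Largest among the higher genes that met the rule for naming was CG6602, a gene with no role known here, at 15.4 to 34.5 TPM in HC18 (median 24.1) and 1.37 to 10.8 TPM in LC25 (median 3.03). The groups do not overlap. It was 5.27-fold higher in HC18 (log2 2.40 ± 0.197 SE, 12 of 12 pairs, limma adjusted p = 1.41e-06), and its difference was 2.43 over the 8 pairs. CG10581 had 21.0 to 51.99 TPM in HC18 (median 38.2) and 2.65 to 12.4 TPM in LC25 (median 8.98), a 4.38-fold difference without overlap (log2 2.13 ± 0.184 SE, limma adjusted p = 1.41e-06). CG43117 was an order of magnitude more abundant, at 329 to 596 TPM in HC18 (median 464) and 86.2 to 262 TPM in LC25 (median 165). Every HC18 library of it lay above every LC25 library (log2 1.48 ± 0.128 SE, limma adjusted p = 1.41e-06). CG18598 (log2 1.66), CG31248 (1.38) and CG11601 (1.15) were likewise separated without overlap.

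Cpr60D, a predicted cuticle protein gene, had 205 to 534 TPM in HC18 (median 354) and 61.7 to 215 TPM in LC25 (median 102). Only the lowest HC18 value lies inside the LC25 range, and the gene was 3.12-fold higher in HC18 (log2 1.64 ± 0.158 SE, 12 of 12 pairs, limma adjusted p = 5.01e-06). Among the 16 cuticle protein genes tested, Cpr50Cb (log2 1.01) also rose and the other 14 did not pass, so that 12.5% were higher, against 7.23% of all genes. The remaining named genes on this side were CG13051 (log2 2.13), CG9338 (1.98), CG6357 (1.51), CG40472 (1.47) and Targ2 (1.25). CG9338 varied widely from library to library and ran from 1.31 to 309 TPM in HC18 and from 0 to 85.3 TPM in LC25.

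On the lower side CG17931 stood apart, with 26.2 to 82.6 TPM in HC18 (median 59.3) and 121 to 213 TPM in LC25 (median 167), no overlap, and 0.360 times the LC25 level (log2 -1.48 ± 0.130 SE, 12 of 12 pairs lower, limma adjusted p = 1.41e-06). CG12994 had 39.0 to 146 TPM in HC18 (median 73.9) and 73.6 to 342 TPM in LC25 (median 179), lower in 12 of 12 pairs although the ranges overlap (log2 -1.06 ± 0.143 SE, limma adjusted p = 0.000307). The tetraspanin genes Tsp42Ek (log2 -0.996) and Tsp42Eo (-1.25), which encode membrane proteins, fell, as did cGlr2 (-1.22), a sensor of foreign nucleic acid that makes cyclic dinucleotides. So did CG32706 (-1.06), CycJ (-1.07), a cyclin gene, CG14696, CG5618 (-1.16) and aust. The cGlr2 level was 2.52 to 19.0 TPM in HC18 (median 6.96) and 11.1 to 28.9 TPM in LC25 (median 18.9), lower in 11 of 12 pairs.

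Of these 24 genes 13 overlap another annotated gene, CG6602 with CG13295 and CG10581 with Polr3E on the opposite strand, and CG17931 with CG42446 on the same strand. CG13295 was at 0.72 and passed (limma adjusted p = 0.0216), and Polr3E was at 0.32 and did not (0.302). Whether quantification used strand is not stated, so reads of such pairs cannot be told apart. Over the 8 pairs 20 of the 24 genes still passed; aust, NPF, Tsp42Eo and mt:ND6 did not. The libraries of HC25 enter both of the other comparisons of the series, so these share libraries with the one described and with each other. Against HC25, HC18 gave 590 of 8714 genes (6.77%; 750 of 8489, 8.83%, without the ZT06 and ZT08 pairs), whereas LC25 gave 0 of 8672 genes in limma against HC25 (399 at an unadjusted p below 0.05). CG6602 differed by 2.30 between HC18 and HC25 and by -0.10 between LC25 and HC25, Cpr60D by 1.89 and 0.25, and CG17931 by -1.49 and -0.02, all on the log2 scale.

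**Figure D2:**
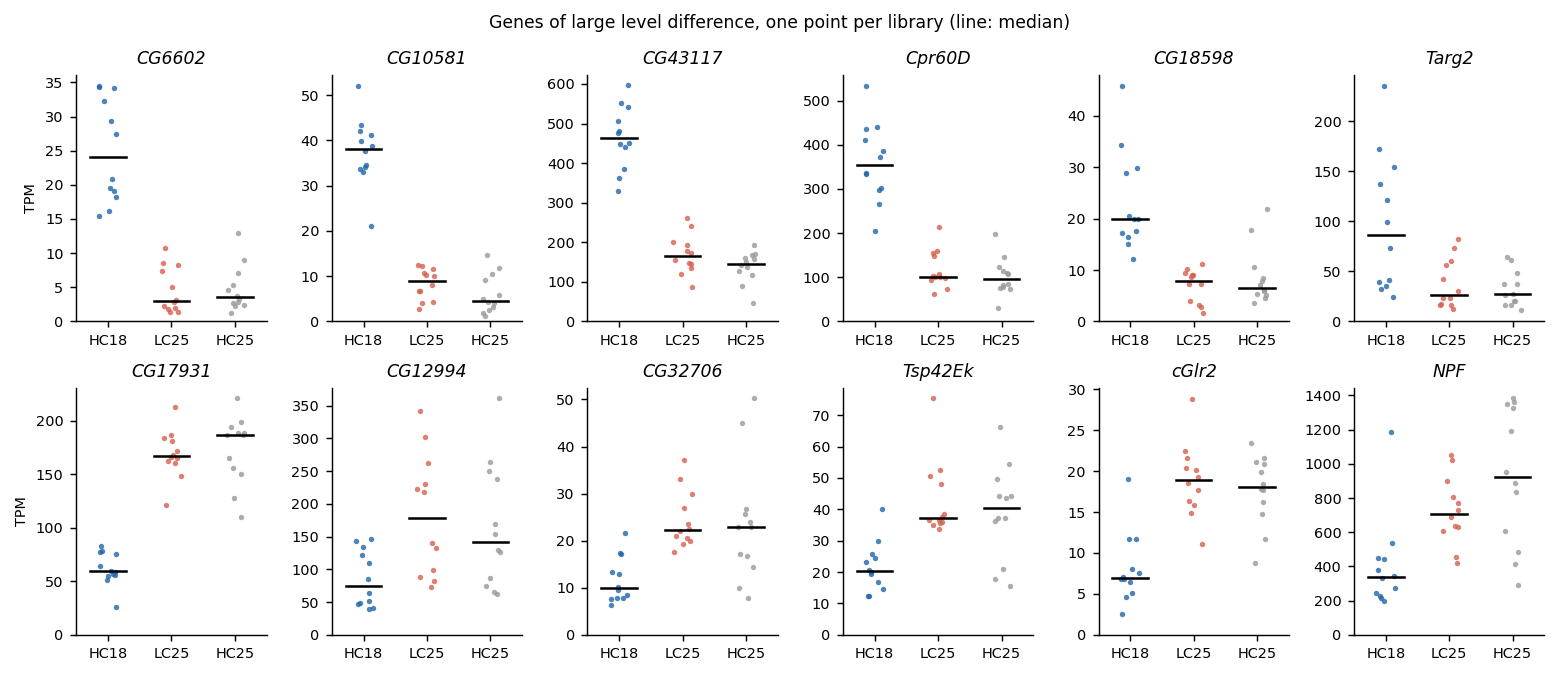
TPM of 6 genes higher in HC18 (upper row) and 6 genes lower in HC18 (lower row), with 1 point per library for HC18, LC25 and HC25 and a line at the median. HC18 and LC25 do not overlap for CG6602, CG10581, CG43117, CG18598 and CG17931. Among the other genes shown, the medians are 86.3 TPM in HC18 against 26.7 TPM in LC25 for Targ2, and 339 against 709 TPM for NPF.

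In the core clock 4 of 8 genes passed. Higher in HC18 were cry and cyc (25% of the list, against 7.23% of all genes). Lower were tim and Pdp1 (25%, against 2.53%), while per, vri, Clk and cwo did not pass. Over the 8 pairs without the low fmt libraries only tim passed. The gene cry had 454 to 1216 TPM in HC18 (median 743) and 218 to 1019 TPM in LC25 (median 392). It was 1.89-fold higher, in 10 of 12 pairs (log2 0.92 ± 0.172 SE, limma adjusted p = 0.00354), and only the LC25 libraries of ZT12 and ZT24 exceeded their HC18 partners. Over the 8 pairs its difference was 0.75 and did not pass (limma adjusted p = 0.105). The activator gene cyc had 19.9 to 48.9 TPM in HC18 (median 34.1) and 12.4 to 44.7 TPM in LC25 (median 24.5), a 1.35-fold difference in 10 of 12 pairs (log2 0.43 ± 0.118 SE, limma adjusted p = 0.0269; 0.309 over the 8 pairs). The call of cyc was also lost after quantile normalization (limma adjusted p = 0.0518).

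As for tim, the gene of the PER partner, values were 34.1 to 684 TPM over the day in HC18 and 51.5 to 883 TPM in LC25, both with their highest value at ZT14. It was lower in HC18 in 11 of 12 pairs, at 0.735 times the LC25 level (log2 -0.45 ± 0.113 SE, limma adjusted p = 0.0182), and still passed over the 8 pairs (log2 -0.57, limma adjusted p = 0.0411). Pdp1 peaked at the same time point, at 1268 TPM in HC18 and 2664 TPM in LC25. It was lower in 10 of 12 pairs (log2 -0.63 ± 0.177 SE, limma adjusted p = 0.0320; 0.169 over the 8 pairs). From ZT10 to ZT22 every HC18 value of Pdp1 lies under its LC25 partner, and the exceptions are ZT08 and ZT24. With no pairing by time point, tim and Pdp1 did not pass (limma adjusted p = 0.650 and 0.470), since their daily range then counts as spread.

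The values of per were 5.63 to 64.4 TPM in HC18 and 5.53 to 51.8 TPM in LC25 (9 of 12 pairs higher in HC18, log2 0.38 ± 0.168 SE, limma adjusted p = 0.152). The log2 difference was 0.41 ± 0.219 SE for vri, 0.23 ± 0.131 SE for Clk and -0.21 ± 0.0955 SE for cwo (limma adjusted p = 0.237, 0.272 and 0.162). In cosines of 24 h fitted to each group, per peaked at ZT17.2 in HC18 and ZT17.6 in LC25, tim at ZT15.6 and ZT15.8, vri at ZT14.6 and ZT15.0, and Clk at ZT3.33 and ZT3.20. Their amplitudes (log2, mean to peak) were 1.39 in HC18 and 1.10 in LC25 for per, 1.87 and 1.85 for tim, 2.75 and 3.46 for vri, 1.52 and 1.95 for Pdp1, and 1.71 and 1.67 for Clk. The difference between the 2 rhythms did not pass for any of the 8 core clock genes (limma adjusted p = 0.9998 for each).

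Among clock kinases and modifiers of PER and TIM, 1 of 23 genes changed (4.35%, against 9.76% of all genes), Dyrk2 (log2 0.41, limma adjusted p = 0.0452). Its call was lost in 18 of 24 alternatives, among them rescaling by the median ratio. In such counts, here and below, the fit without ZT24 stands in duplicate, by itself and among the fits that leave out 1 time point. The kinase gene CkIalpha was at log2 -0.21 (limma adjusted p = 0.134).

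**Figure D3:**
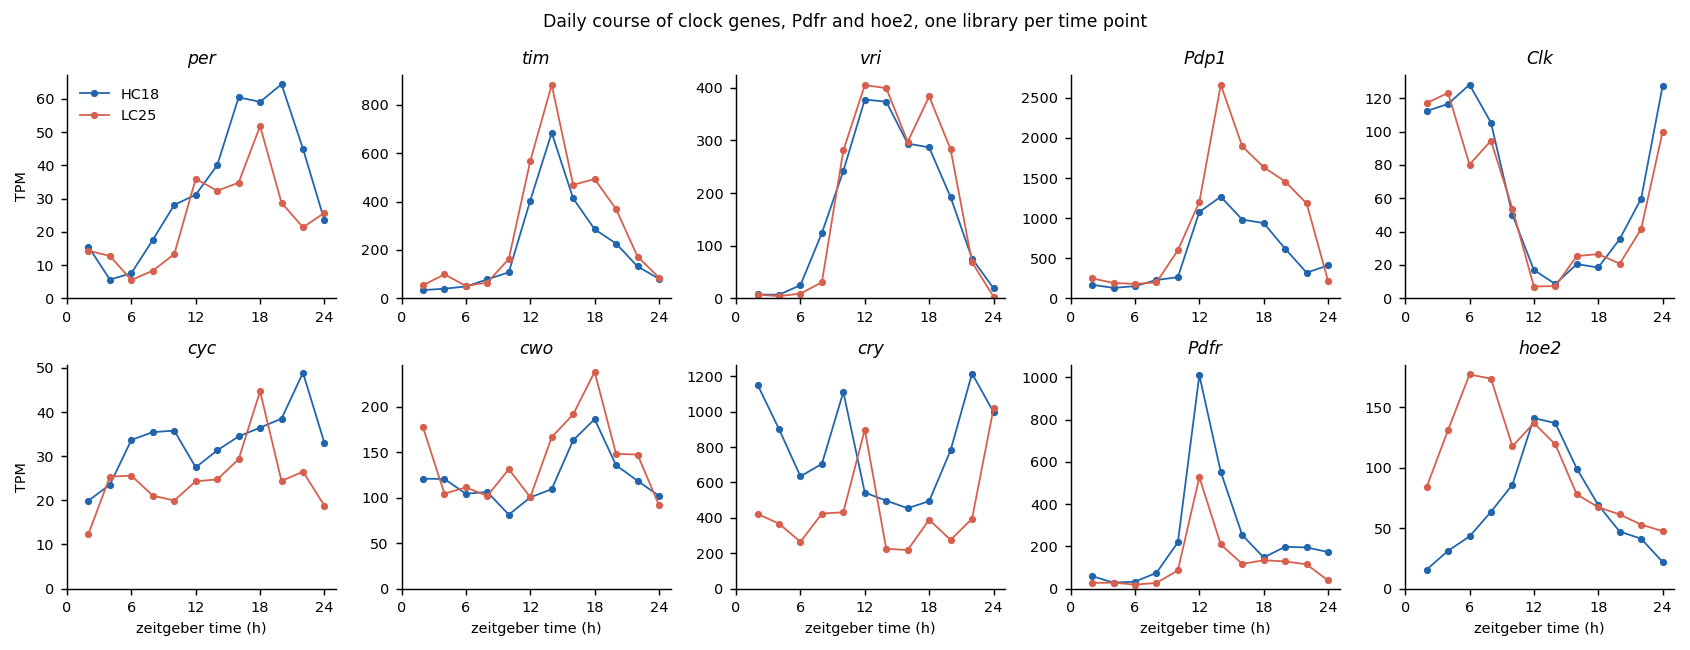
TPM of the 8 core clock genes, of the PDF receptor gene Pdfr and of hoe2 by zeitgeber time, with 1 library per time point for HC18 (blue) and LC25 (red). tim and Pdp1 have their highest value at ZT14 in both groups and are lower in HC18, cry is higher in HC18 in 10 of 12 pairs, and hoe2 runs higher in LC25 in the first part of the day.

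Of the 12 LNv peptide and identity genes tested, Pdfr rose (8.33%, near the 7.23% of all genes) and NPF fell (8.33%, against 2.53%). The other 10 did not pass. Pdfr, the receptor by which LNv neurons sense PDF, had 27.7 to 1010 TPM in HC18 (median 184) and 18.8 to 527 TPM in LC25 (median 100). Its ranges overlap because it cycles, but each HC18 library lay above its LC25 partner, with a 1.98-fold difference (log2 0.98 ± 0.148 SE, 12 of 12 pairs, limma adjusted p = 0.000732; 0.0260 over the 8 pairs, 0.274 with no pairing by time point). Both groups had their highest value at ZT12, and the fitted peaks were ZT15.3 in HC18 and ZT15.6 in LC25. NPF, the gene of neuropeptide F, which controls feeding and is made by some clock neurons, had 195 to 1185 TPM in HC18 (median 339) and 421 to 1054 TPM in LC25 (median 709). It was at 0.501 times the LC25 level, lower in 11 of 12 pairs (log2 -0.997 ± 0.199 SE, limma adjusted p = 0.00519), and did not pass over the 8 pairs (log2 -0.65, limma adjusted p = 0.132). Gpb5, a glycoprotein hormone subunit gene, was at -0.29 and Hr51, a nuclear receptor gene, at 0.31 (limma adjusted p = 0.106 and 0.118).

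Other peptide genes that rose were singled out after their values were seen. Nplp1, a neuropeptide precursor gene, had 73.4 to 393 TPM in HC18 (median 145) and 45.5 to 191 TPM in LC25 (median 76.7), a log2 difference of 0.90 (limma adjusted p = 0.00482). The leucokinin gene Lk was low, at 3.58 to 23.03 TPM in HC18 and 0.439 to 18.2 TPM in LC25 (log2 1.20, limma adjusted p = 0.0262), and CNMaR, a neuropeptide receptor gene, was at log2 1.18 (limma adjusted p = 0.00533). These 3 genes did not pass over the 8 pairs. Dh44, a diuretic hormone gene in the list of markers of other clock neurons, was at 5.85 to 37.2 TPM in HC18 and 1.71 to 31.1 TPM in LC25 (log2 1.12, limma adjusted p = 0.00545), and still passed over the 8 pairs. The summed markers of other clock neurons, a list that also holds NPF and Gpb5, were at 782 to 2683 TPM in HC18 and 1407 to 2174 TPM in LC25 (exact p = 0.0396, adjusted 0.105), and their part in these results was not tested.

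In neuropeptide processing and release 4 of 26 genes were higher (15.4%, against 7.23% of all genes) and 0 lower in HC18, and the list's median difference of 0.05 lay under that of all genes. The 4 act in peptide maturation: svr, a carboxypeptidase gene (log2 0.38), Pal2 and Phm, which together amidate peptide ends (both 0.37), and 7B2, a helper of a prohormone convertase (0.44). Pal2 had 1400 to 2534 TPM in HC18 (median 1754) and 1187 to 1687 TPM in LC25 (median 1385), higher in 12 of 12 pairs. None of these 4 calls held after rescaling by the median ratio, which called 0 higher and 1 lower gene of the list.

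Of 19 potassium channel genes 2 rose (10.5%, near the 7.23% of all genes), sand, a sleep-related leak channel gene (log2 1.03, limma adjusted p = 0.00460), at 2.14 to 8.63 TPM in HC18 and 0.568 to 4.72 TPM in LC25, and qvr, a modulator of Shaker channels (log2 0.44, limma adjusted p = 0.0170). Over the 8 pairs sand and qvr did not pass (limma adjusted p = 0.106 and 0.144). Of 22 sodium, calcium and leak channel genes 0 passed, against 9.76% of all genes. In the nicotinic and GABA receptor list 3 of 17 were higher (17.6%, against 7.23% of all genes), nAChRalpha3, nAChRbeta2 and Lcch3, and nAChRalpha6 was lower (5.88%, against 2.53%). nAChRalpha3, an acetylcholine receptor subunit gene, had 40.7 to 108 TPM in HC18 (median 65.0) and 22.8 to 68.8 TPM in LC25 (median 33.8), and was higher in 12 of 12 pairs (log2 0.76 ± 0.109 SE, limma adjusted p = 0.000561; 0.0116 over the 8 pairs). nAChRalpha6 moved the other way (log2 -0.39, limma adjusted p = 0.0458). nAChRalpha6 lost its call in 14 of 24 alternatives and Lcch3 in 16. Over the 8 pairs nAChRbeta2, Lcch3 and nAChRalpha6 did not pass (limma adjusted p = 0.0703, 0.277 and 0.330). In the activity-regulated list 1 of 13 genes passed (7.69%, against 9.76% of all genes, and 2.53% of all genes lower). It was kay, the fly Fos gene, lower at -0.65, which did not pass over the 8 pairs (limma adjusted p = 0.0562). Arc1 was at -1.37 (limma adjusted p = 0.0620).

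The 13 mitochondrially encoded genes were lower in HC18 by point value, and 11 passed, against the background of 2.53%. They code for subunits of the respiratory chain. mt:Cyt-b had 3746 to 14090 TPM in HC18 (median 8435) and 9745 to 22160 TPM in LC25 (median 15539), 0.524 times the LC25 level and lower in 10 of 12 pairs (log2 -0.93 ± 0.194 SE, limma adjusted p = 0.00645). mt:ATPase6 was at -0.92 and mt:ND4 at -0.82, and mt:ND6, at 95.1 to 3619 TPM in HC18 and 1799 to 10572 TPM in LC25, had the largest difference (log2 -1.79 ± 0.402 SE). The median of the 13 was -0.85. Over the 8 pairs 0 of the 13 passed, with a median of -0.43, and after quantile normalization 3 passed.

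Nuclear genes of the same complexes had no lower call. Of 77 nuclear respiratory chain genes 8 were higher (10.4%, near the background of 7.23%) and 0 lower, with a median of 0.19, among them COX8, a subunit of cytochrome c oxidase (log2 0.54). Of 73 mitochondrial ribosomal protein genes 5 rose, a share of 6.85%, under the background.

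In cytosolic ribosomal protein genes 46 of 87 were higher in HC18 (52.9%, against 7.23% of all genes) and 0 lower (2.53% of all genes). Their median log2 difference was 0.40, against 0.09 for all genes, and 83 of the 87 had a positive point value. RpL40, which is made fused to ubiquitin, had 1739 to 2771 TPM in HC18 (median 2064) and 984 to 1586 TPM in LC25 (median 1350), with no overlap (log2 0.68 ± 0.110 SE, limma adjusted p = 0.00102). RpL27 was also separated, at 1759 to 2410 TPM in HC18 and 1263 to 1729 TPM in LC25 (log2 0.53 ± 0.0903 SE, limma adjusted p = 0.00167). RpL19 had the largest difference of the named members, 1.77-fold (log2 0.83). After rescaling by the median ratio 20 were higher and 1 lower, and over the 8 pairs 2 were higher, with a median of 0.26. The ribosomal share was 17.1 to 20.6% in the 4 HC18 libraries low in fmt and 13.4 to 17.5% in the other 8.

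Other genes of protein synthesis were called less often, which was not itself tested. Among 35 translation initiation factor genes 5 rose (14.3%, against 7.23% of all genes) and 1 fell (2.86%, against 2.53%). eIF3d1, a subunit of the complex that loads the small ribosomal subunit, had 83.8 to 152 TPM in HC18 (median 105) and 58.2 to 83.5 TPM in LC25 (median 65.5), with no overlap and higher in 12 of 12 pairs (log2 0.66 ± 0.0972 SE, limma adjusted p = 0.000623; 0.0211 over the 8 pairs). eIF3b, of the same complex, was at 0.55 and eIF4H1 at -0.49 (limma adjusted p = 0.00127 and 0.00629). Of 20 aminoacyl-tRNA synthetase genes 3 rose (15%, against 7.23% of all genes), AsnRS, GluProRS and beta-PheRS, with the list's median at 0.28. They lost their call in 15, 9 and 12 of 24 alternatives, and none passed over the 8 pairs (limma adjusted p = 0.407, 0.299 and 0.350).

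In protein folding and breakdown the share of genes called higher exceeded that of all genes (7.23%) in each of the lists described here, but few calls remained over the 8 pairs. Of the 8 genes of CCT, the ring chaperonin that folds actin and tubulin, 7 rose, with a median of 0.51 and all 8 point values positive. CCT7 had 46.6 to 75.1 TPM in HC18 (median 60.0) and 23.7 to 50.1 TPM in LC25 (median 38.1), higher in 12 of 12 pairs (log2 0.70 ± 0.107 SE, limma adjusted p = 0.000778; 0.0234 over the 8 pairs). CCT6 was at 0.33 and did not pass (limma adjusted p = 0.0892). Of 35 proteasome genes 13 rose (37.1%, against 7.23% of all genes) and 1 fell (2.86%, against 2.53%), with a median of 0.36. The one that fell, Prosalpha1, was near 0 in many libraries, reached 10.1 TPM in HC18 and 39.1 TPM in LC25, and was lower in 7 of 12 pairs. The core subunit gene Prosbeta6 had 91.5 to 147 TPM in HC18 (median 107) and 56.0 to 107 TPM in LC25 (median 81.1), higher in 12 of 12 pairs (log2 0.45, limma adjusted p = 0.00478). Over the 8 pairs 1 gene of each of the CCT and proteasome lists passed, with medians of 0.39 and 0.25, and after rescaling by the median ratio 5 and 10 were higher.

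Among 33 heat shock and co-chaperone genes 7 rose (21.2%, against 7.23% of all genes) and 0 fell (2.53% of all genes), with a median of 0.27; over the 8 pairs 0 passed. l(2)efl, a small heat shock protein gene, had 12.9 to 51.7 TPM in HC18 (median 32.7) and 2.77 to 39.5 TPM in LC25 (median 9.54), 2.54-fold higher in 10 of 12 pairs (log2 1.35 ± 0.281 SE, limma adjusted p = 0.00648). The co-chaperone gene stv was at 0.57, higher in 12 of 12 pairs, and Hsp68 at 0.63. Hsp70Ab had the largest point value, with a log2 difference of 3.201 ± 0.830 SE, but it ranged from 0.0476 to 262 TPM in HC18 and from 0.000543 to 43.4 TPM in LC25, and reads may be divided among its near-identical copies. Of these, Hsp70Bb was at 0.57 and passed (limma adjusted p = 0.0498), while Hsp70Aa (0.20), Hsp70Ba (0.57), Hsp70Bbb (0.71) and Hsp70Bc (0.46) did not. Hsp26 was at 0.37 and Hsp23 at 0.27 (limma adjusted p = 0.0566 and 0.0916). In the list of cold and dehydration induced genes 1 of 11 passed (9.09%, against 9.76% of all genes), Hsp68. In the unfolded protein response 4 of 22 rose (18.2%, against 7.23% of all genes), the sensor genes Ire1 (log2 0.70) and PEK (0.45), Cnx99A (0.36) and Hrd3 (0.43). None of the 4 passed over the 8 pairs (limma adjusted p = 0.143, 0.288, 0.267 and 0.278), and PEK and Hrd3 lost their call in 14 and 17 of 24 alternatives.

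Spase22-23, a subunit gene of the signal peptidase that trims secreted proteins, was singled out after its values were seen because its groups do not overlap: 336 to 516 TPM in HC18 (median 406) and 213 to 311 TPM in LC25 (median 255), a log2 difference of 0.69 ± 0.0921 SE (limma adjusted p = 0.000274; 0.00757 over the 8 pairs). Of the other subunit genes twr was at 0.40 (limma adjusted p = 0.00978), Spase25 at 0.29 (0.0696) and Spase12 at -0.02 (0.948).

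**Figure D4:**
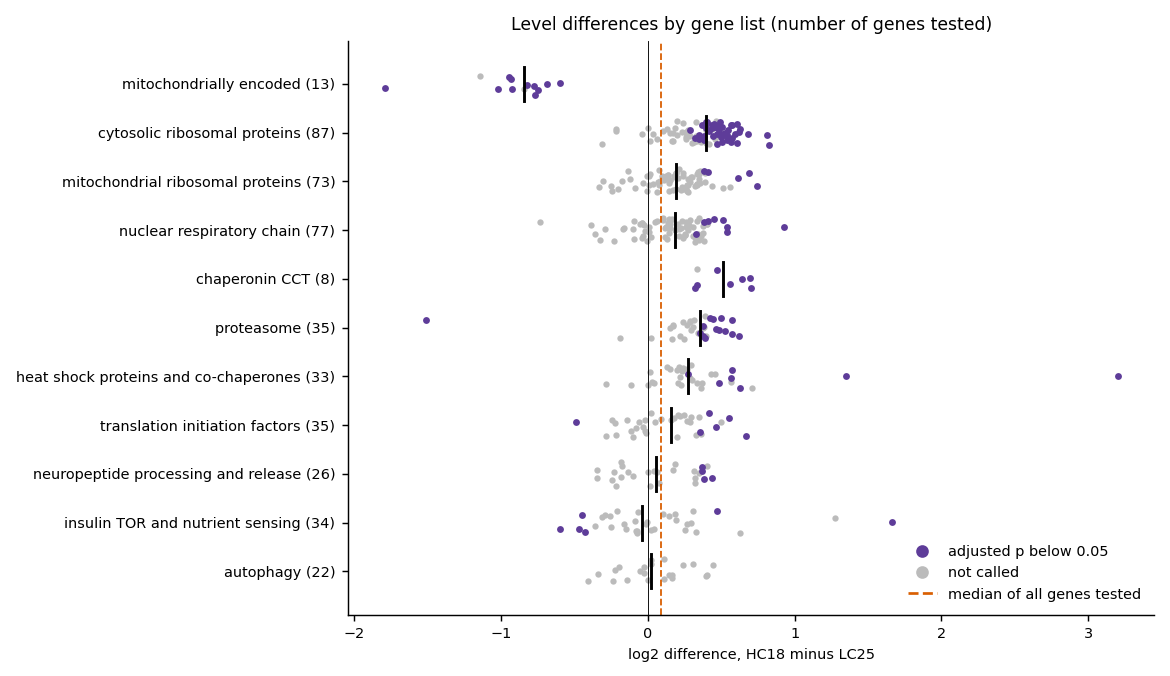
Log2 difference of each gene, HC18 minus LC25, for 11 gene lists, with the number of genes tested in brackets, called genes in purple, a black line at each list's median and a dashed line at the median of all genes tested (0.09). Mitochondrially encoded genes have a median of -0.85, and the cytosolic ribosomal protein, CCT and proteasome lists have medians of 0.40, 0.51 and 0.36.

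In nutrient signalling 2 of 34 genes of the insulin and TOR list rose (5.88%, against 7.23% of all genes) and 4 fell (11.8%, against 2.53%), around a median of -0.04. Thor, a translational repressor held in check by TOR, had 207 to 954 TPM in HC18 (median 434) and 134 to 605 TPM in LC25 (median 309), 1.39-fold higher in 11 of 12 pairs (log2 0.47 ± 0.119 SE, limma adjusted p = 0.0184). The TOR restrainers scyl (log2 -0.47) and chrb (-0.45) were each lower in 11 of 12 pairs. InR, the insulin receptor gene (-0.43), and Mitf, a regulator of lysosome genes (-0.60), were lower in 10 of 12 pairs and are named after their values were seen, to complete the count. scyl had 289 to 825 TPM in HC18 (median 559) and 470 to 1048 TPM in LC25 (median 641). Ilp3, an insulin-like peptide gene known from other brain cells, was at 12.5 to 456 TPM in HC18 and 0 to 108 TPM in LC25 (log2 1.67, higher in 8 of 12 pairs, limma adjusted p = 0.0166). Over the 8 pairs none of Thor, scyl, chrb and Ilp3 passed (limma adjusted p = 0.209, 0.199, 0.152 and 0.104).

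In glycolysis and trehalose metabolism 3 of 20 rose (15%, against 7.23% of all genes), the pyruvate kinase gene PyK (log2 0.62), the aldolase gene Ald1 (0.50) and the trehalase gene Treh (0.39). They lost their call in 9, 13 and 18 of 24 alternatives, and none passed over the 8 pairs (limma adjusted p = 0.291, 0.270 and 0.164). In oxidative stress defence 5 of 29 rose (17.2%, against 7.23% of all genes), among them the peroxidase genes Prx5 and Gtpx (both 0.57), and 0 passed over the 8 pairs. Of the ATF4 target genes AsnS, an asparagine synthetase gene, was higher in 12 of 12 pairs (log2 0.85, limma adjusted p = 0.00364, and 0.0467 over the 8 pairs). Thor was the other of 2 that rose among 14 (14.3%, against 7.23% of all genes). Of 22 autophagy genes and 9 antimicrobial peptide genes 0 passed, against 9.76% of all genes. Of 23 lipid genes 1 did (4.35%), FASN1, a fatty acid synthase gene (0.41), which lost its call in 14 of 24 alternatives. In the splicing factor list 4 of 35 rose (11.4%, against 7.23% of all genes), led by SmD2 (0.40), and 3 fell (8.57%, against 2.53%), the RNA-binding protein genes Hrb27C, elav and Rbp9 (-0.45, -0.36 and -0.48). Over the 8 pairs 0 of this list rose and 0 fell, and after rescaling by the median ratio 1 rose and 3 fell.

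The lists of markers of other cells are short, and apart from that of other clock neurons each held 0 or 1 called gene. In lists with a call, the share called ran from 10% (Kenyon cells) to 25% (transmitter synthesis), against 9.76% of all genes. Indy, a citrate transporter gene in the glia list, was lower in 12 of 12 pairs (log2 -0.85 ± 0.127 SE, limma adjusted p = 0.000708), at 90.7 to 224 TPM in HC18 and 131 to 421 TPM in LC25. The summed glia list was 0.0173% ± 0.00411 of TPM in HC18 and 0.0265% ± 0.00931 in LC25 (exact p = 0.00195, adjusted 0.0156; 0.0156 unadjusted over the 8 pairs), most of it Indy, while the other 6 glia genes tested, among them Gs2 (0.80) and Eaat1 (0.65), had positive point values and did not pass. Of 6 photoreceptor markers 0 passed, all with negative point values, ninaE at -1.66 and Arr1 at -0.97. Ddc, an enzyme gene of dopamine and serotonin synthesis, rose in the monoaminergic list (log2 0.79, limma adjusted p = 0.00254; 0.106 over the 8 pairs), while ple, the defining gene of dopamine synthesis, reached at most 9.49 TPM in HC18 and 2.57 TPM in LC25. In the fat body, Kenyon cell, transmitter and female germline lists 1 gene each rose, FASN1, toy, ChAT and grk. These are 16.7, 10, 25 and 11.1% of the lists, against 7.23% of all genes, and none held over the 8 pairs. Positive point values were found in 1 of 6 fat body, 3 of 10 Kenyon cell, 3 of 4 transmitter and 2 of 9 germline genes. In the haemocyte and muscle lists 0 passed. The part of these markers in the other results was not tested.

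The daily rhythm differed for 1 of 8491 genes (0.0118%), hoe2, a predicted membrane transporter gene. hoe2 ran from 15.7 to 141 TPM in HC18 (median 55.3) and from 47.5 to 177 TPM in LC25 (median 101). It peaked at ZT13.4 in HC18 with an amplitude of 1.28 and at ZT8.82 in LC25 with an amplitude of 0.82, a vector difference of 1.24 on the log2 scale (limma adjusted p = 0.000493). The HC18 values of hoe2 lie under those of LC25 from ZT02 to ZT10 and from ZT20 to ZT24, and above them from ZT12 to ZT18. Scp2, a calcium-binding protein gene, Tsp42Eo and CG14075 came next (each with limma adjusted p = 0.0507). Scp2 was also higher in level, at 34.2 to 621 TPM in HC18 (median 236) and 15.2 to 183 TPM in LC25 (median 53.6), a log2 difference of 1.79 (limma adjusted p = 0.00155). At an unadjusted p below 0.05, 329 genes differed in rhythm (3.87%), and no other tool was run.

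Within genes, the balance between transcripts changed for 153 of 9056 transcripts tested (1.69%), in 101 of 3386 genes, measured in limma as the log2 ratio of a transcript to the gene's other transcripts. In a gene of 2 transcripts both carry the same information. Roc1a encodes a RING subunit of ubiquitin ligases, and its transcript Roc1a-RA took 2.42 to 73.2% of the gene's TPM in HC18 (median 42.2%) and 0 to 7.51% in LC25 (median listed at 0). The mean share was 41.7% ± 17.4 in HC18 and 0.887% ± 2.27 in LC25 (SD, n = 12 each; limma adjusted p = 0.00274). Spase25-RB took 40.1 to 62.7% in HC18 and 0 to 36.2% in LC25, with no overlap (limma adjusted p = 0.0182).

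Vps28-RB, of a gene of endosomal sorting, took 21.5 to 75.6% in HC18 (median 46.1%) and 61.2 to 100% in LC25 (median 91.1%), lower in 12 of 12 pairs (limma adjusted p = 0.0311). The HC18 means of sax-RA, vig2-RA and crq-RE were 38.3, 58.3 and 59.5%, against LC25 means of 79.4, 90.7 and 93.4%, and sax encodes a receptor of the BMP pathway. CG11601-RB was at 44.1% in HC18 and 5.94% in LC25. Without the 4 time points low in fmt 7 transcripts passed: vig2-RA and vig2-RD, crq-RE and crq-RA, CG17931-RA and CG17931-RD, and St3-RB. Those of the same gene moved in opposite directions, for CG17931 by -2.33 (RA) and 2.34 (RD) on the log2 scale. Roc1a-RA (limma adjusted p = 0.125), Spase25-RB (0.126) and Vps28-RB (0.270) did not pass. Leaving out single time points moved the count from 32 to 187.

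The clock genes had no change of this kind: per-RB took 29.3% ± 8.96 of per in HC18 and 24.6% ± 8.87 in LC25 (SD, n = 12 each; limma adjusted p = 0.294), and of 7 tim transcripts tested 0 passed. tim-RB and tim-RT have identical values in the deposited table.

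**Figure D5:**
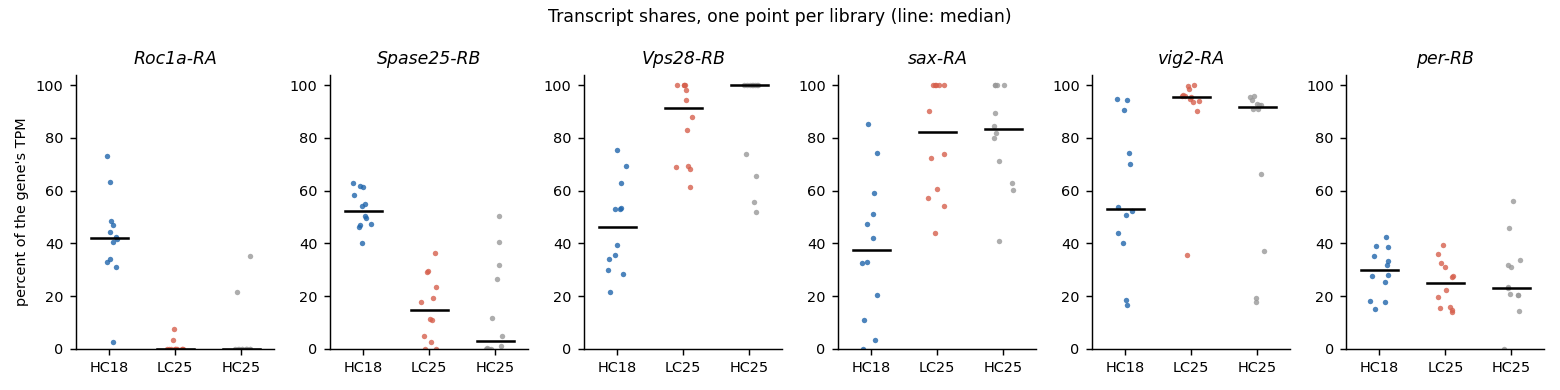
Share of the gene's TPM taken by 6 transcripts, with 1 point per library for HC18, LC25 and HC25 and a line at the median. Spase25-RB has no overlap between HC18 and LC25, Roc1a-RA lies at 2.42 to 73.2% in HC18 and 0 to 7.51% in LC25, and per-RB overlaps throughout.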

How the data were processed

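RNA of sorted LNv neurons was amplified linearly with T7 polymerase and sequenced, per the labels' protocols. The deposited values are TPM per transcript, made by the authors with kallisto, per the submitters' processing notes; its version, transcript set, genome build and strand setting are not stated there. TPM sum to 1000000 per library, so depth is unknown, and no coordinates or sequences are printed. Of 30485 transcripts, 30246 matched Ensembl release 115 (BDGP6.54, used for names only); the 239 others held 0.139% of TPM on average. TPM were summed to 13817 genes. Reporter transcripts stayed in the library totals and out of the gene tests.

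Genes averaging 1 TPM or more across both groups entered limma 3.58.1 (R 4.3.3) on log2(TPM + 1), with condition and time point as terms, a trend and Benjamini-Hochberg adjustment over all genes, at a threshold of 0.05. Pairs come from the labelled time point. Deviations of same-time libraries correlated at 0.0275 to 0.422, over 0.1 in 8 of 12 pairs. Only for the HC18 libraries of ZT14 and ZT20 was the best-correlated LC25 library that of the same time. Rhythm differences were tested as the interaction of condition with a cosine of 24 h. The balance of transcripts was the log2 ratio to the gene's other transcripts. Shares of 16 transcript classes were compared by an exact paired sign-flip permutation test (Python 3.11.15, SciPy 1.17.1), 2-sided, whose smallest possible p with 12 pairs is 0.000488. The fits were tested on simulated data.

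Named genes are the 12 higher and 12 lower ones of largest difference among those past the threshold that averaged 10 TPM or more and kept 1 direction in at least 11 of 12 pairs; all core clock genes and Pdf; up to 4 members of smallest p from each of 38 gene lists; up to 10 genes of smallest p for rhythm; and the 10 transcripts of largest change in share, at most 1 per gene, plus those of per and tim. The comparison, the lists and these rules were chosen with earlier results of these data known.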

Additional observations from a re-analysis of the deposited data

Results flagged for a closer look

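The rhythm of hoe2 differed between HC18 and LC25 by a test of the difference itself, with a vector difference of 1.24 on the log2 scale (limma adjusted p = 0.000493). It kept an adjusted p under 0.05 in each alternative computed, the highest being 0.0113. The level of hoe2 was also lower in HC18 (log2 -0.79, limma adjusted p = 0.0322), and lost that call over the 8 pairs without ZT06, ZT08, ZT10 and ZT22 (0.264). Groups of 12 libraries are above the size at which single outlying samples were looked for.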

How the results depend on the processing

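No called difference of a named gene, transcript or class changed sign under the alternatives computed, but values that did not pass did: Spase12 ran from -0.15 to 0.21, fmt from -2.55 to 0.00975, ITP from -0.96 to 0.26, Yp1 from -0.97 to 0.11 and tim-RR from -0.41 to 0.31. The balance of higher and lower calls also turned with the scaling. Against 829 genes called, 614 higher and 215 lower in HC18, the counts were 410 higher and 386 lower after scaling by the median ratio, 411 and 404 after quantile normalization, 279 and 458 after leaving out mitochondrially encoded genes, Pdf, fmt and trol before scaling, 395 and 140 (535 in all) with no filter on low values, and 60 and 46 (106 in all) without ZT06, ZT08, ZT10 and ZT22. The cause of these shifts was not tested. For the count of 106, the smaller number of pairs and the particular libraries left out cannot be told apart. Leaving out 1 time point gave 513 to 1115 genes in all, 370 to 856 higher and 129 to 290 lower; ZT06 (513), ZT16 (525) and ZT20 (521) each moved the count by more than 1.5 times. Without the replicate block, that is without the pairing by time point, 667 genes were called, 605 of them among the 829, and 535 transcripts instead of 153.

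The 1 gene called for rhythm became 4 after quantile normalization, 4 after leaving out the abundant transcripts, 5 at a mean TPM of at least 5, 6 without ZT24, and 1 to 6 when leaving out 1 time point. The transcript count was 45 at a pseudocount of 0.1, 7 without the 4 time points, 99 without ZT24, 87 without trend, 98 on the percent scale and 32 to 187 when leaving out 1 time point. LC25 against HC25 gave 1 gene without ZT06 and ZT08. Without the 4 time points the class differences, HC18 minus LC25 in points of percent, were -4.02 for mitochondrially encoded transcripts (exact p = 0.0781), 2.90 for Pdf (0.156) and -0.67 for trol (0.203). When leaving out 1 time point they were -6.29 to -5.21 for mitochondrially encoded transcripts, 3.07 to 4.04 for ribosomal protein transcripts, 2.74 to 4.31 for Pdf, -1.43 to -0.970 for trol, -2.45 to -1.21 for fmt and -0.311 to -0.0550 for the reporter mCD8GFP. With 1 library per time point and condition and no depth in TPM, low genes carry the least certain values.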
